A study of Mus musculus with 6 samples.

Results

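Klb, Fgfr1 and Fgfr2 were the 3 genes of the FGF21 receptor among the 329 genes measured in sorted cells of the mouse hypothalamus. They were chosen by name, as the co-receptor and the FGF receptors that the primer panels measured, and not by their values. Earlier results of these data were known when they were chosen. All 3 belong to the larger of the gene sets, with 265 genes, and none to the smaller set of 75 genes. They were therefore followed in the 4 libraries of the larger set, which hold 1124 of the 1253 cells of the series.

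FGF21 is a hormone made mainly by the liver that acts on the brain to alter energy expenditure, sugar intake and body weight. It binds the co-receptor beta-klotho, the product of Klb, and signals through an FGF receptor tyrosine kinase held in the same complex. Fgfr1 encodes the receptor regarded as its main partner, and Fgfr2 encodes a related receptor that other FGF ligands use in glia and many other cells. Klb marks where the hormone can act, because FGF receptors are found far more widely than beta-klotho. In the brain Klb RNA is known to be scarce and limited to few sites.

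Mice of strain C57/Bl6 carried KLB-CRE and Ai14, an allele that switches on the red protein tdTomato for good once Cre has acted. Hypothalami were pooled by 3 for each of 3 captures, and the cells were sorted for tdTomato and for viability, so no group of cells without the reporter was set beside them. The cross records Klb expression at any time in the life of a cell or its ancestors, and it does not show that Klb is on at the time of the sort. All samples were digested with pronase at 2 mg per ml for 30 min at 37 C and passed through a strainer of 70 um. The labels give neither age nor sex.

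Counts of molecules, tagged by unique molecular identifiers (UMIs), were made on the BD Rhapsody platform with 2 primer panels per capture. The larger set was carried by panel 1 and panel 2 of replicate 1 and by panel 2 of the other replicates, written below as P1R1, P2R1, P2R2 and P2R3 (panel, then replicate). A barcode counted as a cell with at least 20 UMIs and at least 5 genes, which left 950, 44, 43 and 87 cells in these libraries, in that order. They held 105772, 11423, 79560 and 109452 UMIs, and the median cell held 51, 115.5, 1352 and 1068. The libraries shared 0 barcodes with each other. A replicate is 1 pool of 3 hypothalami, both libraries of replicate 1 come from 1 capture, and cells of a library are not replicates of a condition. Intervals are 95% intervals, exact Poisson for levels and exact Clopper-Pearson for shares, and cover counting error alone. Where a count was 0, the limit is the level or share that 3 counts would give, and it bounds cells with a UMI, not cells that express a gene. Each member was read through 1 amplicon, so levels were compared between libraries and never between genes.

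The co-receptor was not found. Klb (NM_031180.2, read at the site that the headers call the reference end) had 0 UMIs in all 4 libraries. In 1124 cells this allows a share of up to 0.267%, and over their 306207 UMIs a level of up to 0.0098 UMIs per 1000. The 605 barcodes under the cell filter held no Klb UMI either, which makes 0 of 1729 barcodes with a limit of 0.174%. The labels call the sorted cells KLB expressing. In these tables the name rests on the reporter, since the transcript itself was at 0 in all 4 libraries.

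Klb was not alone at 0. Of the 265 genes of the larger set, 92 had no UMI in any of the 4 libraries and 33 were found in all of them. A list of 27 genes of the FGF receptor pathway was drawn up, from ligands through adaptors and kinases to feedback inhibitors, and 5 of them were measured. Of these 5, the ligand genes Fgf21 and Fgf15 were at 0 in all 4 libraries like Klb, and Fgfr1 and Fgfr2 were found. The members of the list that act inside the cell were not in the larger set, so signalling downstream of the receptor was not measured through them.

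The reporter itself varied between libraries. TdTomato stood at 4.55 UMIs per 1000 in P1R1, and at 0, 3.77 and 5.34 in P2R1, P2R2 and P2R3. It was thus found in each of the 3 captures, between 3.77 and 5.34, but was at 0 in P2R1, where the limit for the share of cells was 6.82%.

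Fgfr1, the main signalling partner, was found in 3 of the 4 libraries, at levels that differed between them. Fgfr1 (NM_010206.3, read at a site that the headers call PolyA) stood at 9.95 UMIs per 1000 (9.35 to 10.6) in P1R1, from 1052 UMIs. It stood at 21.3 (18.7 to 24.1) in P2R1, from 243 UMIs, at 0 in P2R2 and at 1.46 (1.24 to 1.71) in P2R3, from 160 UMIs. P2R1 was highest, followed by P1R1 from the same capture, P2R3 and, at 0, P2R2. No neighbours in this order had intervals that met, but these cover counting error alone. Without its deepest barcode P1R1 stood at 7.92, outside its own interval. How many other genes differ as much between libraries was not counted.

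The spread between captures was larger than the mean level of Fgfr1. Its mean over panel 2 was 7.58 ± 11.9 UMIs per 1000 (SD, n = 3). P2R1 was 2.14-fold above P1R1, from the same capture, and 14.6-fold above P2R3. Without the deepest barcodes these folds were 2.89 and 15.3. Levels of Fgfr1 and Fgfr2 alike are shares of the UMIs of a library, so such folds also depend on the other genes found there. Genes found numbered 157 in P1R1 and 50, 93 and 120 in P2R1, P2R2 and P2R3. The part of this difference in the folds was not tested. Against P2R2, the floor of 3 counts in that library is 0.0377 UMIs per 1000. Fgfr1 stood 38.8-fold above this floor in P2R3, 264-fold above it in P1R1 and 564-fold above it in P2R1. Over the same floor, the folds without the deepest barcodes were 39.6, 210 and 607 in these libraries. No test between panels was run, since the larger set has 1 library labelled panel 1.

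**Figure D1:**
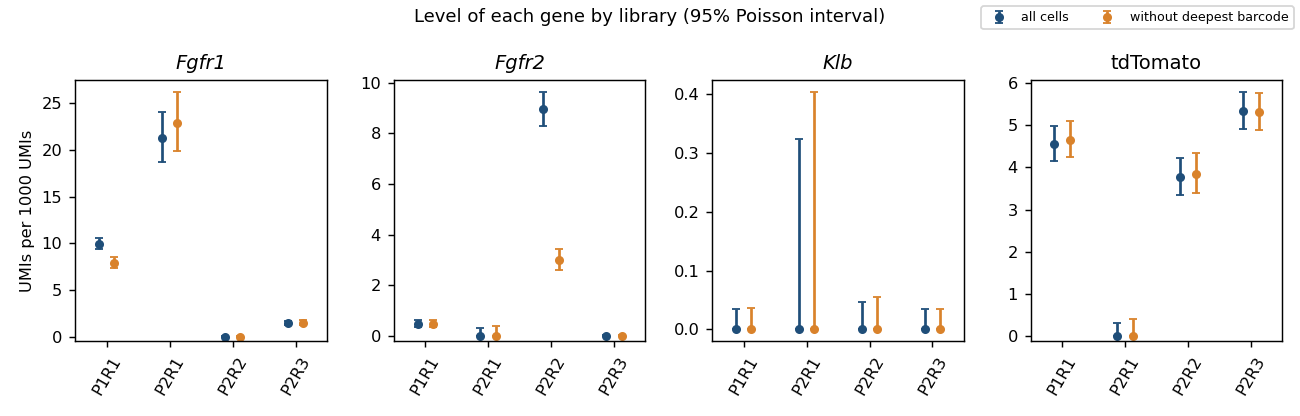
Level of the 3 receptor genes and of tdTomato in UMIs per 1000 UMIs (vertical axis, a scale of its own for each gene) in P1R1 (panel 1 of replicate 1) and P2R1, P2R2 and P2R3 (panel 2 of replicates 1 to 3). Points are library totals and bars are 95% Poisson intervals, for all cells and without the deepest barcode of each library: Fgfr1 is at 0 in P2R2, Fgfr2 falls from 8.95 to 2.99 there without 1 barcode, and Klb is at 0 throughout.

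The zero of Fgfr1 in P2R2 was at a depth that exceeded that of the libraries where it was found in replicate 1. The median cell there had 1352 UMIs, against 51 in P1R1 and 115.5 in P2R1. It was 1 of 9 genes at 0 in that library alone, out of 42 found in each of the other 3. The other 8 were Calb2, Gap43, Gfra2, Gja1, Gucy1a3, Ndrg4, Oprl1 and Slc6a13. Of the 18 genes found in over 95% of cells of P2R1, 5 were at 0 in P2R2: Fgfr1, the growth cone gene Gap43, the neurturin receptor gene Gfra2, the gap junction gene Gja1 and the neuronal gene Stmn2.

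The order of libraries changed with the measure used. Fgfr1 was in 419 of 950 cells (44.1%) of P1R1, in 43 of 44 cells of P2R1, in 0 of 43 of P2R2 (limit 6.98%) and in 69 of 87 (79.3%) of P2R3. By share of cells, P2R3 thus lay above P1R1, and by UMIs per 1000 it lay below. At an equal depth of 35 UMIs a cell, computed as the exact expected share, the values were 25.7% in P1R1 and 62.4%, 0% and 5.19% in P2R1, P2R2 and P2R3. Cells under that depth stayed out, 306 in P1R1 and 1 in P2R1, and the order was again that of the UMIs per 1000. The mean over panel 2 at this depth was 22.5% ± 34.6 (SD, n = 3).

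Fgfr1 UMIs were few per cell in all 3 libraries that had them. The median cell held 0 UMIs in P1R1, 3 in P2R1 and 2 in P2R3, and the highest cell held 245, 66 and 10. Cells with at least 2 UMIs numbered 166 (17.5%), 32 (72.7%) and 44 (50.6%). The 66 UMIs stood in a cell of 1612 UMIs and the 10 in a cell of 906, so in these libraries the highest cell for Fgfr1 was not the deepest. In P1R1 it was.

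The share of cells with Fgfr1 was close to that of cells that differ in depth alone in P1R1 and P2R3, and above it in P2R1. If each cell drew its UMIs from the profile of its library, leaving out the deepest barcode, 42.2% of cells of P1R1 would have held the gene, and 44% did. The same values were 86.5% and 97.7% in P2R1 and 80.1% and 79.1% in P2R3. The counts per cell varied more than this draw, with a chi-square of 1.77, 1.78 and 1.93 per degree of freedom in these 3 libraries. No set of cells known to lack the receptors was labelled, so the share that free RNA gives was not measured in such cells. Barcodes under the cell filter in P1R1 had 6.95 Fgfr1 UMIs per 1000, against 7.92 in its cells without the deepest barcode.

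**Figure D2:**
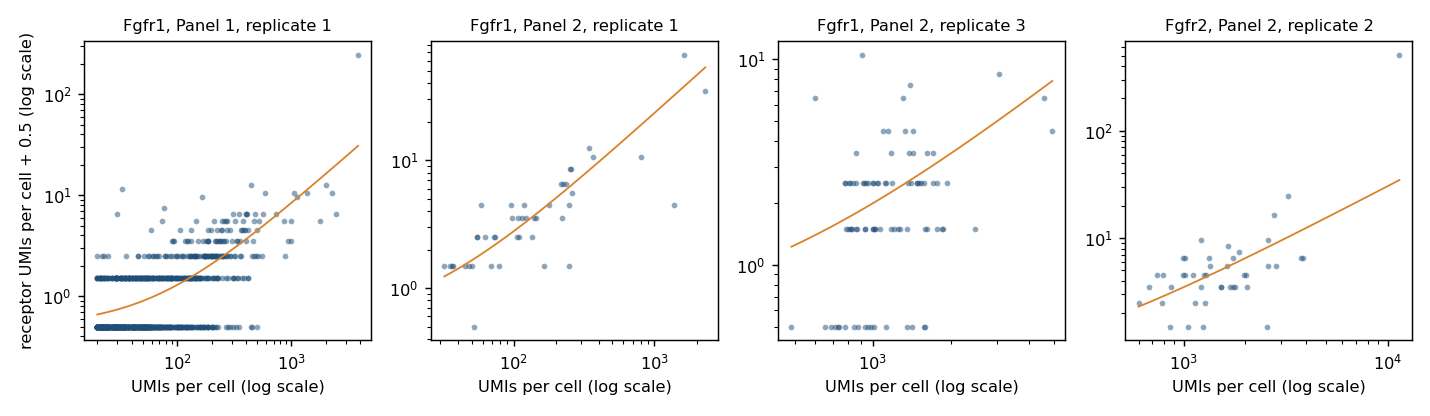
Receptor UMIs in each cell, plus 0.5 (vertical axis, log scale), against all UMIs of the cell (horizontal axis, log scale), for Fgfr1 in its 3 libraries and for Fgfr2 in P2R2. Each point is a cell, and the line is the count expected from the level of the library without its deepest barcode: the deepest cell lies far above the line in the first and last plots, with 245 and 508 UMIs.

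A single barcode carried much of the Fgfr1 count of P1R1. This deepest cell, with 3838 UMIs or 3.63% of the library, held 245 Fgfr1 UMIs, which is 23.3% of the gene's total and 63.8 per 1000. Without it the level was 7.92 UMIs per 1000 (7.38 to 8.48). Without the deepest barcode the level was 22.9 in P2R1, 0 in P2R2 and 1.49 in P2R3, so the order of libraries stayed as it was.

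Fgfr2, the related receptor, was high in the library where Fgfr1 was at 0. Fgfr2 (NM_010207.2, read at the reference end) stood at 0.492 UMIs per 1000 (0.367 to 0.645) in P1R1, from 52 UMIs. It stood at 0 in P2R1, at 8.95 (8.30 to 9.63) in P2R2, from 712 UMIs, and at 0.00914 in P2R3, from 1 UMI. P2R2 was thus highest and lay 18.2-fold above P1R1, its neighbour in the order. P2R1 and P2R3 could not be told apart, since 3 counts in P2R1 would make 0.263 UMIs per 1000.

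The level of Fgfr2 in P2R2 rested largely on its deepest barcode. That cell, with 11434 UMIs or 14.4% of the library, held 508 Fgfr2 UMIs, 71.3% of the gene's total. Without it, Fgfr2 stood at 2.99 UMIs per 1000 (2.60 to 3.43), 6.10-fold above P1R1, where the level without the deepest barcode was 0.491. Against the floor of P2R1, Fgfr2 in P2R2 stood 34.1-fold higher with the deepest barcode and 11.4-fold higher without it. The mean over panel 2 was 2.99 ± 5.16 UMIs per 1000 (SD, n = 3) with all cells and 1.0 ± 1.73 without the deepest barcodes.

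Every cell of P2R2 held Fgfr2. It was in 43 of 43 cells (91.8% to 100%), with a lowest count of 1, a median of 4 and, apart from the deepest cell, a highest of 24. Elsewhere it was in 37 of 950 cells (3.89%) of P1R1, in 0 of 44 of P2R1 (limit 6.82%) and in 1 of 87 (1.15%) of P2R3. At 35 UMIs a cell the expected shares were 1.69% in P1R1 and 0%, 12% and 0.0295% in P2R1, P2R2 and P2R3. P2R2 stayed highest at equal depth, at a value far below its full share.

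Few genes were as uneven as Fgfr2 between P2R2 and P2R3. Of 44 genes found in all cells of P2R2, Fgfr2 was the 1 found in under 5% of cells of P2R3. That count depends on the cutoff, since Nme5 was in 97.7% of cells of P2R2 and in 1.15% of P2R3. It was also 1 of 44 genes at 0 in P2R1 alone, out of 77 found in each of the other 3 libraries, with tdTomato among the 44.

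Some genes followed the pattern of Fgfr1 across libraries. Likeness was the mean absolute difference of log2(UMIs per 1000 + 0.1), centred per gene, over the 4 libraries, among 87 genes found in at least 3 of them, where the median distance from Fgfr1 was 3.42. The nearest was Slc6a13, the gene of a GABA and taurine transporter, at a distance of 0.51. Its levels were 3.66 in P1R1 and 18.5, 0 and 1.5 UMIs per 1000 in P2R1, P2R2 and P2R3. Gfra2 followed at 0.56, with 7.04, then 40.3, 0 and 0.767 UMIs per 1000, and Gja1 at 1.01, with 16.2, then 22.8, 0 and 0.192. Without the deepest barcodes Slc6a13 and Gfra2 stayed nearest and Gap43 (0.79) came before Gja1 (1.02). These points share their library and panel, and 4 libraries are too few for a correlation.

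The 3 genes nearest to Fgfr2 by the same measure, listed after their values were seen, were Nme5 (0.72), Snx12 (0.80) and Ugt8a (0.83). Ugt8a encodes the enzyme that makes the galactolipids of myelin. Ugt8a stood at 1.71 UMIs per 1000 in P1R1 and at 0, 17.5 and 0.594 in P2R1, P2R2 and P2R3. It was in 97.7% of cells of P2R2, so it moved with Fgfr2 between libraries. The oligodendrocyte marker Ermn stood at 2.46 in P1R1 and at 0, 9.78 and 0.831 in P2R1, P2R2 and P2R3, also highest in P2R2. Bcas1, another oligodendrocyte marker, did not share that order, with 60.5 in P1R1 and 95.8, 23.1 and 15.5 in panel 2. The deepest barcode of P2R2 held 935 of its 1390 Ugt8a UMIs, and without it Ugt8a stood at 6.68 and Ermn at 5.45 UMIs per 1000 there. The part of oligodendrocyte RNA in the level of Fgfr2 was not tested.

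Markers of other cell types also differed between the libraries of high and low Fgfr1. The 2 measured of 7 astrocyte markers, Gja1 and Gfap, summed to 20.6 UMIs per 1000 in P1R1 and to 22.8, 0.201 and 2.46 in P2R1, P2R2 and P2R3, the same order of libraries as Fgfr1. That order came from Gja1, since Gfap alone was at 4.42 in P1R1 and at 0, 0.201 and 2.27 in panel 2, and so at 0 where Fgfr1 was highest. The 3 measured tanycyte markers summed to 23.9 in P1R1 and to 0, 0.729 and 3.31 in panel 2, a different order. Of the 3 measured neuronal markers, Syt1 was at 0 in all 4 libraries, and Stmn2 was in 95.5% of cells of P2R1 and in none of P2R2 and P2R3. Tubb3 did not share that peak, with 0.265 UMIs per 1000 in P1R1 and 0 in P2R1, P2R2 and P2R3. The myeloid marker Fcer1g ran at 26.9, then 121, 83.5 and 98.8 UMIs per 1000. The part of these cell types in the level of Fgfr1 was not tested.

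Early response genes, which FGF signals and many other stimuli switch on, were described beside the receptors. Of a list of 10, 5 were measured and all 5 were found in at least 1 library. Fos was at 15.9 UMIs per 1000 in P1R1 and at 0, 7.57 and 2.96 in P2R1, P2R2 and P2R3. Nr4a1 was at 23.0, then 0, 14.4 and 1.45, and Fosb at 2.05, then 0, 0 and 0.0822. Fos, Fosb, Arc and Nr4a1 were at 0 in P2R1, the library with the highest Fgfr1, while Btg2 was at 27.1, then 66.4, 39.4 and 51.1. Arc did not exceed 0.758 UMIs per 1000 in any library. All samples had been digested with pronase for 30 min at 37 C, with no undigested sample beside them. The part of the digestion or of FGF signals in these levels was not tested.

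Fgfr1 and the reporter were next read in the same cells, to see whether cells with tdTomato RNA were those with the receptor. Only P1R1 and P2R3 held both. In P1R1, 180 cells held both, 239 held Fgfr1 alone, 101 held tdTomato alone and 430 held neither. Fgfr1 was in 64.1% of the cells with tdTomato and in 35.7% of those without, and the product of the shares expects 124 cells with both, a ratio of 1.45. The cells with tdTomato were also deeper, at a median of 131 UMIs against 41.

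Within bins of depth the excess over the product was smaller, and it was absent in the lowest bin. Among 461 cells of 20 to under 50 UMIs, 11 held both and 13.6 were expected from the product. Among 216 cells of 50 to under 100 UMIs, 29 held both and 27.8 were expected, and among 273 cells of 100 or more UMIs, 140 held both and 125 were expected. Summed over these bins, 166 were expected, a ratio of 1.08. Fgfr1 was in 20.0% of cells with tdTomato against 25.4% without in the lowest bin, and in 46.8% against 44.2% in the middle bin. In the deepest bin it was in 85.4% against 62.4%. There Fgfr1 was in 76.2% of all cells, which limits how high the ratio can be. Even within the deepest bin, the median was 220.5 UMIs with tdTomato and 164 without, so depth was not equal there.

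**Figure D3:**
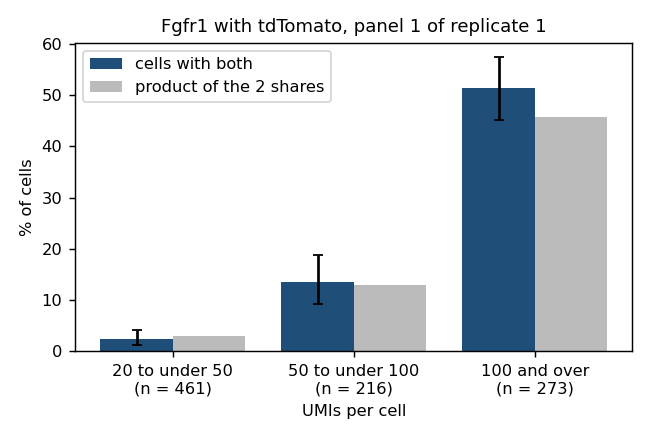
Share of cells of P1R1 with UMIs of both Fgfr1 and tdTomato (vertical axis, % of cells), in 3 bins of UMIs per cell (horizontal axis, n cells in each). Dark bars are the observed share with its 95% Clopper-Pearson interval and grey bars the product of the shares of both genes in the bin: the interval spans the product in each bin, and both rise with depth. The interval covers the joint share alone and takes the product as exact, so it does not test independence. In the deepest bin Fgfr1 was in 85.4% of cells with tdTomato and in 62.4% of those without, where depth was also unequal.

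With each of 770 cells thinned to 28 UMIs, the 20th percentile of that library, the ratio of joint share to product was 0.872 (0.492 to 1.38), from an expected 2.11% of cells with both. The interval treats the expected joint share as if it were counted and takes the product as exact, and it includes 1. Thinned to the 50th percentile it was 1.04. Over the 73 genes in 5% to 95% of cells at 28 UMIs, tdTomato among them, the same ratio with Fgfr1 ran from 0.720 to 1.24 with a median of 1.0, and 6 genes lay below tdTomato. P2R3 held 68 cells with both, 18 with tdTomato alone, 1 with Fgfr1 alone and none with neither, where the product expects 68.2. At 842 UMIs in 69 cells the ratio there was 0.994, but with tdTomato in 97.6% of these cells it could not have exceeded 1.02, so P2R3 says little about the pair. In P1R1 at equal depth, neither an excess nor a deficit of cells with both was detectable with the interval above.

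In P2R1, 43 of 44 cells held Fgfr1 and none tdTomato, and in P2R2, 41 of 43 held tdTomato and none Fgfr1. Neither library has a pair to compare. The panels of replicate 1 come from the same capture, so the gap between 180 doubly detected cells in P1R1 and 0 in P2R1 lies between libraries of 1 pool of tissue.

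Fgfr2 was read with the reporter in the same way. In P2R2 it was found in all 41 cells with tdTomato and in both cells without, and at 1001 UMIs in 34 cells the ratio was 1.0, where the shares allow at most 1.05. In P1R1, 21 cells held both and 10.9 were expected, but the 37 cells with Fgfr2 had a median of 172 UMIs against 50 in the others. At 28 UMIs the ratio there was 1.31, with an interval from 0.0224 to 4.91 that spans both directions.

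Fgfr1 and Fgfr2 were found in the same cells in P1R1. Of its 37 cells with Fgfr2, 26 also held Fgfr1, where the product expects 16.3, and 11 did not. At 28 UMIs the ratio was 0.964 (0.116 to 3.43), so at equal depth neither pairing nor avoidance of the receptors was detectable. In the other libraries at most 1 cell held both, the single cell with Fgfr2 of P2R3.

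Genes in the same cells as Fgfr1 were then ranked by phi, the correlation of detection across cells, with every cell thinned to 1 depth per library. In P1R1, at 28 UMIs in 770 cells, the values for 73 genes ran from -0.043 to 0.044 around a median of 0.003. None exceeded 0.1. The highest were Gfra2 (0.044), the Src family kinase gene Fyn (0.041), the smooth muscle actin gene Acta2 (0.031), Gja1 (0.028) and the BMP receptor gene Bmpr1a (0.026). The lowest were the chemokine gene Cxcl12 (-0.043), the beta-1 adrenergic receptor gene Adrb1 (-0.040) and Atp9b (-0.031). Correlations of this size in sparse counts are no finding.

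The other libraries hold fewer cells and gave wider ranges. In P2R1, at 55 UMIs in 36 cells, 38 genes ran from -0.041 to 0.195 around a median of 0.085, and 14 exceeded 0.1. Rarres2 (0.195), Stmn2 (0.175), Plekhm2 (0.171), Cspg4 (0.158) and Gfra2 (0.154) were highest, and Snx30 (-0.041), Calb2 (-0.035) and Rin2 (-0.022) lowest. In P2R3, at 842 UMIs in 69 cells, 62 genes ran from -0.174 to 0.165 around a median of 0.018, and 16 exceeded 0.1. Adm (0.165), Gria2 (0.145), Igf1 (0.143), Gfap (0.141) and Irs1 (0.140) were highest, and Oprl1 (-0.174), Slf2 (-0.167) and Tmem237 (-0.116) lowest. Rarres2 encodes the ligand chemerin, Cspg4 the proteoglycan NG2 and Gria2 an AMPA receptor subunit.

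The sign of phi was often not the same between libraries. Of the 21 genes measured at equal depth in both P1R1 and P2R3, 6 had a positive phi in both, 1 a negative phi in both and 14 opposite signs. Of 27 genes in both P1R1 and P2R1, 15 were positive in both and 12 opposite, and of 11 in both P2R1 and P2R3, 6 were positive in both and 5 opposite. Across these genes the Pearson r of phi was -0.277, 0.495 and 0.522 for these pairs of libraries, in that order, and genes are not independent replicates. Most genes had a positive phi in P2R1, where the median was 0.085. In all 3 libraries 5 genes could be followed, of which 3 were positive in each. They were Gfra2 (0.044, 0.154 and 0.113), the metallothionein gene Mt2 (0.014, 0.084 and 0.113) and Slc6a13 (0.013, 0.140 and 0.004). TdTomato had a phi of -0.024 in P1R1 and -0.054 in P2R3.

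**Figure D4:**
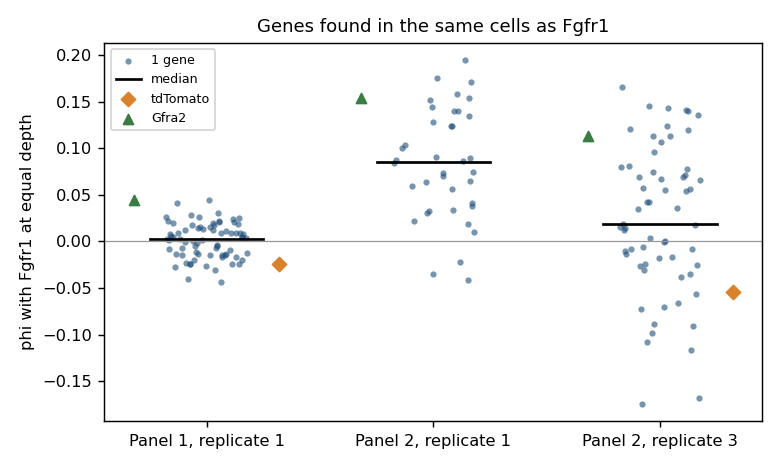
Correlation of detection with Fgfr1 across cells (phi, vertical axis, no unit) at equal depth, in the 3 libraries with Fgfr1 (770, 36 and 69 cells). Each dot is 1 gene found in 5% to 95% of cells at that depth, bars are medians, and Gfra2 and tdTomato are drawn beside the dots: values lie within -0.043 and 0.044 in P1R1 and spread more widely in the libraries of fewer cells.

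In P1R1, markers of cell types had values inside the range of the other genes. The precursor marker Cspg4 had a phi of 0.022, Rarres2 of 0.019, Vim of 0.001, Fcer1g of -0.013, Bcas1 of -0.014 and Gfap of -0.015. The vessel markers Acta2, Slco1c1, Slco1a4 and Slc2a1 had 0.031, -0.007, 0.026 and 0.014 there. Fn1 and Col3a1 of fibroblasts had 0.003 and -0.017. Gfap was at 0.141 in P2R3, the opposite sign from P1R1. The other astrocyte marker, Gja1, was at 0.028 in P1R1 and -0.025 in P2R3, so these markers had opposite signs in each of these libraries.

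Counts summed over cells with and without Fgfr1 gave the test of these differences over libraries. Cells were thinned to the depth of their library and summed by library, which set 165 cells with Fgfr1 against 605 without in P1R1, 27 against 9 in P2R1 and 47 against 22 in P2R3. edgeR's quasi-likelihood test with the library as a block and Benjamini-Hochberg adjustment called 0 of 67 genes at an adjusted p of 0.05, so the share called was 0%, and 3 genes had an unadjusted p under 0.05. DESeq2 also called 0, and found 0 at an unadjusted p under 0.05. The 3 libraries come from 2 captures.

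The 3 genes lowest in p, named after their values were seen, had higher values in cells with Fgfr1 in each of the 3 libraries, and none passed the adjusted threshold. The cells without Fgfr1 in P2R1 held 495 UMIs in total, so values without Fgfr1 there rest on few counts. Slc6a13 was at 6.56 UMIs per 1000 with Fgfr1 against 3.13 without in P1R1, at 21.6 against 6.06 in P2R1 and at 1.89 against 1.36 in P2R3. Its log2 fold change was 0.98 (SE 0.37) with an edgeR adjusted p of 0.311. Rarres2 was at 46.6 against 45.7, 51.5 against 26.3 and 11.6 against 6.91 UMIs per 1000 in the same libraries. Rarres2 had a log2 fold change of 0.54 (SE 0.19) and the same adjusted p, and Cspg4 one of 0.46 (SE 0.19) with an adjusted p of 0.385 by edgeR. Gfra2, near Fgfr1 in level across libraries, was at 0.66 (SE 0.35) with an edgeR adjusted p of 0.727. For tdTomato the log2 fold change was 0.15 (SE 0.35) with an edgeR adjusted p of 0.985, from 3.62 against 4.37 UMIs per 1000 in P1R1 and 5.93 against 4.93 in P2R3.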

How the data were processed

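The deposited values are raw UMI counts for each barcode and amplicon. Per the file headers, version 1.3 (P1R1) or 1.5 (the other tables) of BD's Targeted Rhapsody Analysis Pipeline made them. The submitters' processing notes name mm9 as the genome build. Neither the aligner nor the rule for calling cells is given in the sources used here.

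Amplicons were summed by gene. The panel 2 table of replicate 2 also held 21 barcodes that stand in a table of replicate 3, and these were left out. The 87 barcodes of panel 2 of replicate 3 stand with equal values in the table of panel 1 of that replicate and were used once. Of 1555 barcodes of P1R1 the cell filter dropped 605, and of the other libraries none. Doublets were not called. Depth was set equal by exact hypergeometric expectation, or for the test by random draws (seed 0), with each cell at the 20th percentile of its library. Tests on counts used edgeR 4.0.16 (TMM, filterByExpr) and DESeq2 1.42.0 in R 4.3.3, and other values Python 3.11.15, numpy 2.4.6, pandas 2.3.3, scipy 1.17.1 and matplotlib 3.10.9. On simulated counts for the comparison of cells with and without Fgfr1 (65 genes, 4-fold changes), 10 genes were changed, 8 of them passed the filter, and edgeR recovered 7 with 0 false calls. The spread of these counts was set in advance, the same for all genes. Smaller changes were not simulated, so the recovery does not give the power to find them.

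Named genes were the receptors, tdTomato, measured members of the listed pathways, the 3 genes most like Fgfr1 in level, the 5 highest and 3 lowest by phi in each library, and the leading measured marker of each cell type. Others are said to have been chosen after their values were seen. Results that need certain other genes are not reported here. The members and lists were chosen with earlier results of these data known.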

Additional observations from a re-analysis of the deposited data

Results flagged for a closer look

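Receptor UMIs were also present in barcodes that no comparison used. The 21 barcodes that stand in tables of both replicate 2 and replicate 3 held 128 Fgfr1 UMIs in 15 barcodes, out of 23820 UMIs. Of these, 105 stood in the deepest barcode of 16798 UMIs, and the level was 5.37 UMIs per 1000 with it and 3.28 without. The same barcodes held 94 Fgfr2 UMIs in 17 barcodes, 69 of them in the deepest one, at 3.95 UMIs per 1000 with it and 3.56 without. They held 0 Klb UMIs. Both receptors were thus found here, while P2R2 lacked Fgfr1 and P2R3 had 1 Fgfr2 UMI. The tables do not say which replicate these barcodes belong to. Their columns match the gene names up to the place of the gene measured in replicate 3 alone, with Pearson r across amplicons of 0.623, 0.408 and 0.604 against P1R1, P2R1 and P2R2. After that place, r was 0.042, 0.035 and 0.066 as named and 0.527, 0.395 and 0.484 when moved by 1 column, and amplicons are not independent replicates. The columns of the receptors lie before that place and that of tdTomato after it, so tdTomato is not given.

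The 605 barcodes of P1R1 under the cell filter held 47 Fgfr1 UMIs in 35 barcodes, at 6.95 UMIs per 1000. They held 3 Fgfr2 UMIs and 0 of Klb.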

How the results depend on the processing

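Of the alternatives tried, 79 values counted as unchanged and 14 moved, all 14 in P1R1. Levels, shares and ratios were judged by the spread between captures or the counting interval. Klb and the number of genes called were judged by whether they equalled the main value. For the panel 2 means of both receptors the spread between captures exceeds or nearly equals the mean, so staying within it says nothing about stability. Their share of cells fell from 59.0% to 22.5% at 35 UMIs and 14.7% at 20 UMIs for Fgfr1, and from 33.7% to 4.02% and 2.45% for Fgfr2. In P1R1 the share of cells with Fgfr1 was 44.1%. That share was 29.2% with no cell filter, 62.4% with at least 50 UMIs and 10 genes, 17.5% with detection at 2 UMIs, 25.7% at 35 UMIs and 15.8% at 20 UMIs. The share with Fgfr2 was 3.89%, and 2.57%, 6.13%, 0.421%, 1.69% and 0.857% under the same settings. The Fgfr1 level of 9.95 UMIs per 1000 was 8.56 without the 5% deepest cells, 8.99 as the mean of values per cell and 7.92 without the deepest barcode, a setting chosen after seeing the data. The ratio of Fgfr1 with tdTomato was 0.872 at the 20th percentile of depth, 1.04 at the 50th and 1.45 at full depth. The cause was not tested. In panel 2 the mean Fgfr2 level of 2.99 was 1.06 without the 5% deepest cells, 1.37 as the mean of values per cell and 1.0 without the deepest barcodes.

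Leaving out 1 replicate at a time, the panel 2 mean ran from 0.731 to 11.4 UMIs per 1000 for Fgfr1 and from 0.00457 to 4.48 for Fgfr2. The mean share ran from 39.7% to 88.5% and from 0.575% to 50.6%. For Fgfr1 the lowest values came without replicate 1 and the highest without replicate 2, and for Fgfr2 the lowest came without replicate 2 and the highest without replicate 1.

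The test of cells with against without Fgfr1 called 0 genes under every alternative run, and the lowest adjusted p ran from 0.0537 (edgeR without P1R1, where 9 genes had an unadjusted p under 0.05) to 1.0. Without the block by library it also called 0. No paired analysis was possible between the panels because the larger set has 1 library labelled panel 1. At 35 UMIs P2R3 had under 5 cells of a class and dropped out, as did P2R1 at full depth and without the deepest barcodes. Depth limits all shares, since the median cell of P1R1 held 51 UMIs.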

Other observations

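The deepest barcodes of 2 libraries, looked at after their values were seen, were each led by a receptor. In P1R1, Fgfr1 had the highest fold of 157 genes in the deepest barcode over the other cells, at 7.98 with 0.1 UMIs per 1000 added (63.8 against 7.92). Morn4 (7.19), the glial transcription factor gene Nfib (6.15), the fibronectin gene Fn1 (5.81), Gja1 (4.30) and Fto (3.37) came next. TdTomato was at a ratio of 0.405 there, from 7 UMIs.

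In P2R2, Fgfr2 led the 93 genes of the deepest barcode at 14.4-fold (44.4 against 2.99 UMIs per 1000). Ugt8a was at 12.1-fold, Vamp1 at 7.13-fold and the oligodendrocyte gene Ermn at 6.44-fold there, with tdTomato at 0.868. The deepest barcodes of P2R1 and P2R3 had Fgfr1 at ratios of 0.648 and 0.573. Each of these is 1 barcode with no replicate, and whether it holds 1 cell was not tested.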
